A study of Mus musculus with 12 samples.

Results

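The insulin-like growth factor (IGF) family was followed in muscle stem cells (MuSCs) and myoblasts of the mouse. The 10 genes were chosen by their symbols: the 2 ligands Igf1 and Igf2, the 2 receptors Igf1r and Igf2r, and the 6 binding proteins Igfbp2, Igfbp3, Igfbp4, Igfbp5, Igfbp6 and Igfbp7. All 10 were measured and passed the filter on low values in both comparisons, among 15345 genes tested of 16503 listed in the first and 15304 of 16169 listed in the second.

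The study holds 12 RNA libraries in 4 groups of 3, each made with SMART-seq from 1000 cells. In the culture comparison, 3 WT mice gave both freshly sorted MuSCs and primary myoblasts, which are the progeny of sorted MuSCs after 3 days in a serum medium with bFGF, so that the MuSC and myoblast libraries numbered 04, 05 and 06 are paired by mouse. In the genotype comparison, MuSCs of 3 Nedd4L-cKO mice were set against MuSCs of 3 WT mice, numbered 01, 02 and 03 in each group, to ask what loss of the E3 ubiquitin ligase Nedd4L does to the transcriptome of MuSCs. These were males aged 5 to 6 weeks. For the culture comparison, the methods state that primary myoblasts came from males, and the only age found is the span of the whole study, 1 to 12 months. The Nedd4L-cKO mice were Nedd4L fl/fl Pax7 cre/+ on a C57BL/6 background, so that exon 15 is removed where Cre is made from Pax7, the gene that marks MuSCs, and the alleles of the WT mice are not given in the sources used here. MuSCs of all groups were sorted for ITGA7 and against CD31, CD45, CD11b and SCA1.

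IGF1 and IGF2 are secreted proteins that signal through IGF1R, a receptor tyrosine kinase that engages IRS adaptors, PI3K and AKT, and through it mTORC1 and the FoxO factors. IGF2R does not signal in this way but carries IGF2 to the lysosome. The binding proteins hold IGFs in the extracellular space and can withhold them from the receptor or deliver them to it. In skeletal muscle the family is known for supporting myoblast proliferation, differentiation and growth of the fiber.

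Values are given as RPM, which here are the authors' normalized counts scaled so that the libraries of a comparison sum to 1000000 on average. Differences are on the log2(RPM + 1) scale and were tested with limma, adjusted over all genes tested, with a call where the adjusted p did not exceed 0.05. Levels of different genes are compared only per kb of exonic sequence.

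Promoter sequence is shown for the 4 genes of the family that changed most in culture with Igf2 set aside. These are Igf1 and Igfbp5 (lower in myoblasts) and Igfbp2 and Igfbp3 (higher). Each run is the 250 bases before the RefSeq start on the strand of the gene, in build GRCm38.p6, with capitals for matches on either strand to CANNTG (the E-box bound by myogenic factors, which reads the same on both strands), TATAAA (the TATA box), GGGCGG (the GC box) or TGTTTAC (bound by forkhead factors such as FoxO). For Igfbp2 the more upstream of 2 starts was taken, and these data do not tell which was used. The window of its other start had 56.4% G and C, 1 E-box and 0 GC boxes. For Igf2 the table gives 4 starts, the one used is not known either, and none is printed. The windows are chr10:87860861-87861110 on the + strand for Igf1, chr1:72874866-72875115 on the - strand for Igfbp5, chr1:72824230-72824479 on the + strand for Igfbp2 and chr11:7213924-7214173 on the - strand for Igfbp3.
Igf1: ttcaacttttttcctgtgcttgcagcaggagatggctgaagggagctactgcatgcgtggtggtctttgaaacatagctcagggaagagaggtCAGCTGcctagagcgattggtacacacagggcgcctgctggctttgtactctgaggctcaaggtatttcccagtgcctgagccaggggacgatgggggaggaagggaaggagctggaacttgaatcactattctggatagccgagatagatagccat
Igfbp5: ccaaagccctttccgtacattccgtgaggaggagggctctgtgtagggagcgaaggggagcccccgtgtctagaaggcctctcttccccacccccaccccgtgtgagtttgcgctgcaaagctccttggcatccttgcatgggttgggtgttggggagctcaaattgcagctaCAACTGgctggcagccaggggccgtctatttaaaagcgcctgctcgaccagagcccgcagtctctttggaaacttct
Igfbp2: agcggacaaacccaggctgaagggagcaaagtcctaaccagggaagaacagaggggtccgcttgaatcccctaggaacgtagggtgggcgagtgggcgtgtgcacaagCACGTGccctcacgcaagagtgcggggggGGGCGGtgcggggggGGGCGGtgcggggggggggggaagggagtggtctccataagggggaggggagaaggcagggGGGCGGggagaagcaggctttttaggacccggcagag
Igfbp3: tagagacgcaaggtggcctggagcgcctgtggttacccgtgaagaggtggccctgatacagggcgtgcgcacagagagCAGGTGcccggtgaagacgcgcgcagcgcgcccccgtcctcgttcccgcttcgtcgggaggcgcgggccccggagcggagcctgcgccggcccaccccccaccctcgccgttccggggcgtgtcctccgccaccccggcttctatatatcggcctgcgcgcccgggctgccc
Each of these 4 windows held a single E-box, CAGCTG in Igf1, CAACTG in Igfbp5, CACGTG in Igfbp2 and CAGGTG in Igfbp3, and Igfbp2 also held 3 GC boxes. No matches overlapped. All 10 genes had windows in the table, 14 in all. Of these, 9 held an E-box against 66.2% of all 32851 windows, 6 a GC box against 32.7%, 2 TATAAA against 12.4% and 0 TGTTTAC against 3.17%. G and C made up 52.8% of the Igf1 window, 58.8% of Igfbp5, 67.2% of Igfbp2 and 73.2% of Igfbp3, against a median of 52.4% over all windows. These are matches of letters only.

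Nedd4l, the targeted gene, was at 70.2, 96.4 and 66.7 RPM in WT MuSCs and at 30.2, 36.3 and 22.5 RPM in Nedd4L-cKO MuSCs, with no overlap (log2 difference -1.37, limma adjusted p = 0.0467). The 12 MuSC markers summed to 6428 to 9129 RPM in the fresh MuSCs of the culture comparison and to 825 to 923 RPM in myoblasts, with 10 of the 12 called lower. The 10 markers of activated and differentiating myoblasts summed to 1565 to 1998 RPM and 7844 to 11746 RPM, with 5 of them called higher. In the genotype comparison the MuSC marker sums overlapped (6229 to 10361 RPM in WT, 5307 to 8715 RPM in cKO), with Cd34 as the only one of them called, and it was lower (limma adjusted p = 0.0293). Only 2 of the 12 had a positive difference, against 50.1% of all genes tested, and the median log2 difference was -0.46. An unadjusted p under 0.05 (limma) was reached by 4 of them, Cd34, Calcr, Spry1 and Heyl, all lower in cKO. There the 10 myoblast markers summed to 352 to 1261 RPM in WT and 723 to 1285 RPM in cKO. Of them 9 had a positive difference, against 50.1% of all genes tested, and Ccnb1 was called higher (limma adjusted p = 0.0325). The 10 markers of mature fibers summed to 267 to 513 RPM in WT and 554 to 667 RPM in cKO. All 10 had a positive difference and 0 were called. In the myoblast list and in the mature fiber list, 5 each had an unadjusted p under 0.05 (limma), against 14.6% of all genes tested. Among the genes for the proteins sorted against, Ptprc (CD45) was at most 0.533 RPM and Ly6a (SCA1) at most 2.69 RPM in any of the 12 libraries, while Pecam1 (CD31) was at 7.48 to 16.0 RPM in the culture comparison and 15.05 to 49.9 RPM in the genotype comparison. The endothelial markers summed to at most 110.03 RPM, with Tek at 19.1 to 79.6 RPM in the MuSCs. Pdgfra was at most 2.83 RPM, but other fibroblast markers were abundant in the genotype comparison, with Dcn at 193 to 2208 RPM and Col1a1 at 47.6 to 512 RPM. Markers of mural cells (pericytes and smooth muscle) and of tendon and glia were also present there, and values are given beside the genes they moved with. Per library, normalized counts summed to between 33189802 and 37595659 in the culture comparison and between 40323468 and 50687122 in the genotype comparison, but reads were not recovered, so the depth is unknown.

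In culture, the family was rearranged. Of the 10 genes, 6 differed between myoblasts and MuSCs: Igf2, Igfbp2, Igfbp3 and Igfbp6 were higher and Igf1 and Igfbp5 lower. Over all genes tested, 42.8% were called in this comparison, 22.2% higher and 20.6% lower, so that a call alone is common here and the sizes say more. The groups did not overlap for 7 of the 10, against 55.2% of all genes tested. The median log2 difference was -0.09 over the 10 genes and 0.04 over all genes.

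**Figure D1:**
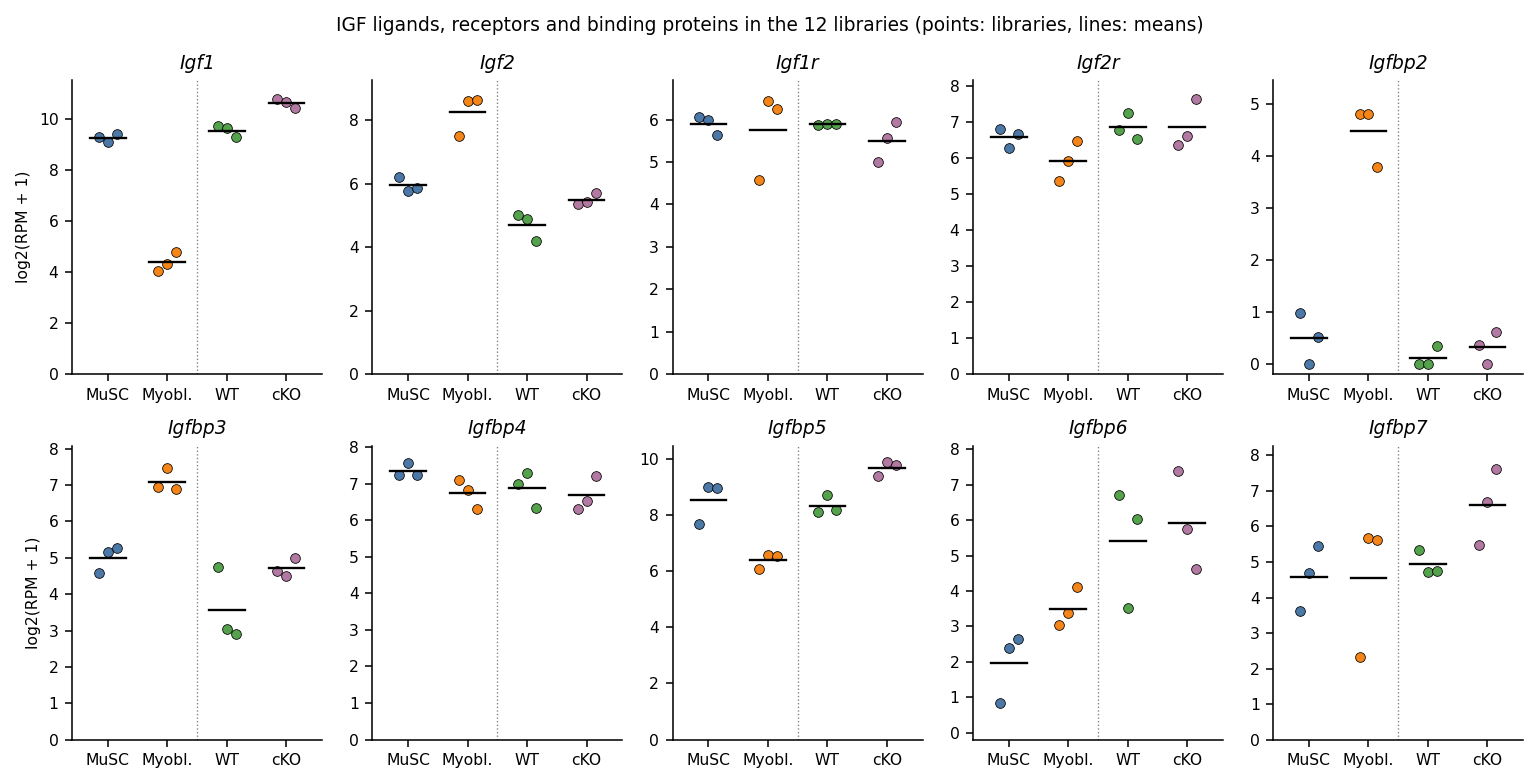
Level of each of the 10 genes in the 12 libraries as log2(RPM + 1), with MuSCs and myoblasts (Myobl.) of the culture comparison left of the dotted line and WT and Nedd4L-cKO (cKO) MuSCs right of it, points for libraries and lines for means. Igf1 was high in all MuSC groups and low in the 3 myoblast libraries, Igf2 and Igfbp3 show the opposite order, and Igfbp2 was near 0 in all 9 MuSC libraries. The sides were normalized separately.

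Igf1 (chr10:87693642-87772904 on the + strand of GRCm39) changed most on the log2(RPM + 1) scale, although Igfbp2 changed more as a ratio of means and with a pseudocount of 0.1. Igf1 was at 640.1, 547 and 696 RPM in MuSCs 04, 05 and 06 and at 15.7, 18.9 and 26.9 RPM in the myoblasts of the same mice. Every myoblast library was far below every MuSC library, and the mean was 30.6 times lower. The log2 difference was -4.90 (SE 0.23, 95% confidence limits -5.42 to -4.37, limma adjusted p = 1.99e-06), and within the 3 mice it was -5.26, -4.79 and -4.64. As these are bulk samples, fewer cells expressing a gene and less of its RNA per cell cannot be told apart. Markers of fibro-adipogenic progenitors, interstitial cells that also make Igf1, were lower at the same time: the 12 summed to 2133 to 2347 RPM in MuSCs and to 130.5 to 210.5 RPM in myoblasts, mostly Col3a1, and Dpt, which was listed at 0 in all 3 myoblast libraries. Of the 12, 8 were tested, 4 called lower and 2 higher. Their part in the fall of Igf1 was not tested. The defining marker of those cells, Pdgfra, was at 2.39, 0 and 1.18 RPM in MuSCs and 2.83, 0.109 and 1.05 RPM in myoblasts.

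Igf2 (chr7:142204503-142220694 on the - strand of GRCm39), the imprinted fetal ligand, was at 72.9, 53.3 and 57.7 RPM in MuSCs and at 181, 392 and 398 RPM in myoblasts. All myoblast libraries were higher, with replicate 04 the lowest of them. The mean was 5.28 times higher (log2 difference 2.31, SE 0.31, 95% confidence interval 1.60 to 3.01, limma adjusted p = 0.000504), and the differences within mice were 1.30, 2.86 and 2.77. The gene overlaps Igf2os on the opposite strand and others, and reads of overlapping genes cannot be told apart without strand. H19 and Ins2, its neighbours on chromosome 7, were not analysed here.

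Per kb, Igf1 stood at 61.3 ± 7.39 RPM per kb (SD, n = 3) in MuSCs and Igf2 at 10.7 ± 1.80. In myoblasts Igf1 was at 2.00 ± 0.565 RPM per kb and Igf2 at 56.5 ± 21.6. The ligand pool was at 72.0 ± 8.19 RPM per kb in MuSCs and 58.5 ± 22.0 in myoblasts, with overlapping libraries, but of another makeup. Within mice it went from 75.3 to 33.1 (04), 62.7 to 70.3 (05) and 78.1 to 72.1 RPM per kb (06). The overlap depends on the length correction. Without it, Igf1 and Igf2 together were higher in every MuSC library than in any myoblast library. Igf2 made up 16.9%, 14.8% and 12.9% of ligand transcripts per kb in the 3 MuSC libraries and 95.4%, 97.4% and 96.4% in the 3 myoblast libraries. Among the 16437 genes with a length, the level of Igf1 per kb was at percentile 93.1 in MuSCs and 44.4 in myoblasts, and that of Igf2 went from percentile 74.3 to 93.8.

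The receptors did not pass the test. Igf1r (chr7:67601518-67883416 on the + strand), the signalling receptor, was at 66.3, 62.3 and 48.4 RPM in MuSCs and at 22.7, 85.4 and 75.5 RPM in myoblasts. The myoblast libraries lay on both sides of the MuSCs, with replicate 04 far below the other two. The log2 difference was -0.14 (95% confidence interval -1.16 to 0.87, limma adjusted p = 0.822). Without myoblast replicate 04 the difference was 0.45. Within mice it was -1.51, 0.45 and 0.63.
Insr, the insulin receptor, which forms hybrids with IGF1R, had the same shape, at 33.4, 17.4 and 31.3 RPM in MuSCs and 9.39, 33.9 and 32.0 RPM in myoblasts.

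Igf2r (chr17:12901293-12988614 on the - strand), the clearance receptor, was at 111, 77.2 and 101 RPM in MuSCs and at 40.0, 59.6 and 89.0 RPM in myoblasts. Values were lower in the myoblasts of each mouse, but the groups overlapped. The log2 difference was -0.67 (95% confidence interval -1.35 to 0.01, limma adjusted p = 0.101), and it passed only without myoblast replicate 06 (-0.95, limma adjusted p = 0.0288). Airn, a noncoding RNA, overlaps the gene on the opposite strand, and reads from sequence they share cannot be told apart without strand.

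Among the binding proteins, Igfbp5 (chr1:72897091-72914043 on the - strand), which binds IGFs tightly and also extracellular matrix, fell. It was at 203, 513 and 502 RPM in MuSCs and at 66.6, 94.3 and 92.7 RPM in myoblasts. The lowest MuSC library, replicate 04, came from the mouse with the lowest myoblast library, and it was still above all myoblasts. The mean was 4.80 times lower (log2 difference -2.15, SE 0.35, 95% interval from -2.95 to -1.35, limma adjusted p = 0.00142), with differences of -1.59, -2.43 and -2.42 within mice.

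Igfbp2 (chr1:72863606-72891634 on the + strand) lies tail to tail with Igfbp5, 5.46 kb away with no protein-coding gene between, and moved the other way. It was at 0.969, 0 and 0.436 RPM in MuSCs and at 27.1, 27.3 and 12.9 RPM in myoblasts. The gene was therefore close to absent from MuSCs and moderate in every myoblast library. The log2 difference was 3.98 (SE 0.41, 95% confidence limits 3.04 to 4.92, limma adjusted p = 0.000119). This scale understates changes from so low a level, and the means stand 48.0 times apart.

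Igfbp3 (chr11:7156086-7164179 on the - strand), the main IGF carrier of serum, was at 23.0, 34.5 and 37.8 RPM in MuSCs and at 122, 175 and 118 RPM in myoblasts. Every myoblast library was over 3 times the highest MuSC library, and the mean was 4.34 times higher (log2 difference 2.09, SE 0.26, limma adjusted p = 0.000314). Igfbp6 (chr15:102052697-102057953 on the + strand), which prefers IGF2, was at 0.794, 4.23 and 5.25 RPM in MuSCs and at 7.13, 9.30 and 16.3 RPM in myoblasts. It was low in both groups, and its rise passed narrowly (log2 difference 1.54, SE 0.52, limma adjusted p = 0.0401). The call was lost without MuSC replicate 04 (0.99, limma adjusted p = 0.0920), MuSC replicate 05 (0.0557), myoblast replicate 05 (0.0791) or myoblast replicate 06 (0.129), and with a pseudocount of 0.1 (0.0560).

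Igfbp4 (chr11:98932064-98945218 on the + strand), which mostly restrains IGFs, was at 149.8, 189 and 151 RPM in MuSCs and at 136, 112 and 78.4 RPM in myoblasts. The groups did not overlap, yet the log2 difference of -0.61 (95% confidence interval -1.14 to -0.07) missed the threshold (limma adjusted p = 0.0650), and passed without myoblast replicate 04 (-0.79, limma adjusted p = 0.0154). Igfbp7 (chr5:77493130-77555931 on the - strand), which binds IGFs weakly and is known from vessel walls, was at 11.4, 24.8 and 42.4 RPM in MuSCs and at 4.06, 50.1 and 48.0 RPM in myoblasts. Its log2 difference was -0.04 with a wide interval of -1.97 to 1.88 (limma adjusted p = 0.973), and 1.06 without myoblast replicate 04. That library was also the lowest of the 3 myoblast libraries for Igf2, Igf1r, Igf2r and Insr.

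**Figure D2:**
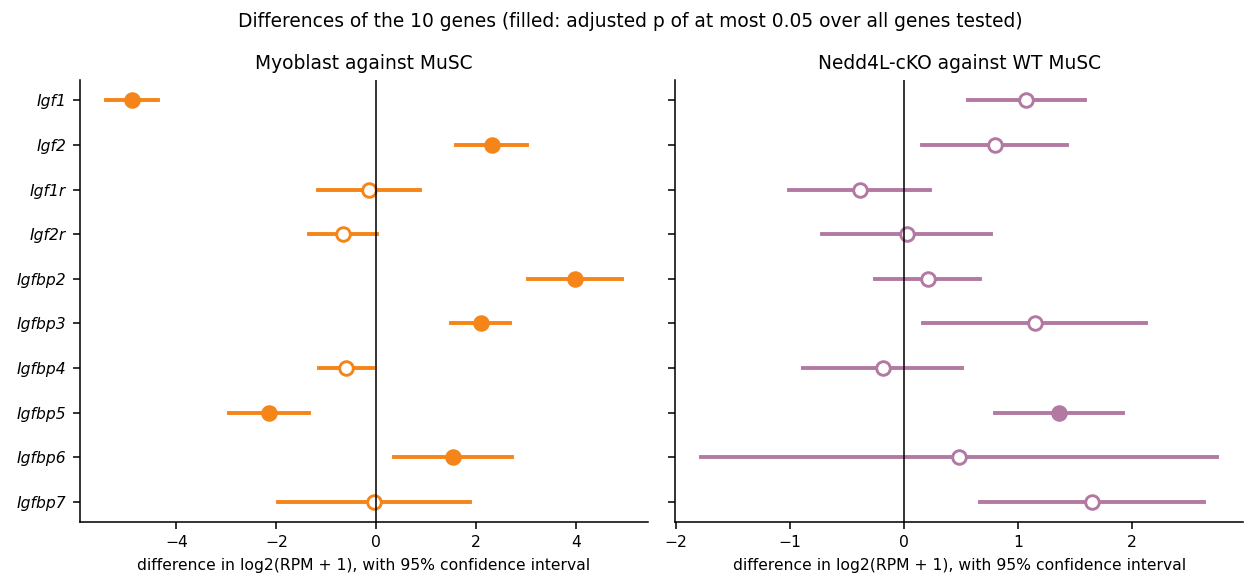
Difference of each of the 10 genes in log2(RPM + 1), with its 95% confidence interval, for myoblasts minus MuSCs (left) and Nedd4L-cKO minus WT MuSCs (right), filled where the adjusted p was at most 0.05. In culture 6 genes are filled, from Igf1 at -4.90 to Igfbp2 at 3.98, and between genotypes only Igfbp5 at 1.36 is filled.

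Per kb, the total of the 6 binding proteins was 126 ± 38.4 RPM per kb (SD, n = 3) in MuSCs and 110.1 ± 15.3 in myoblasts, with overlapping libraries. In MuSCs Igfbp5 and Igfbp4 made up most of it, 51.8% ± 9.08 and 35.0% ± 10.4 of binding-protein transcripts per kb. In myoblasts the share of Igfbp5 was 12.9% ± 2.51 and that of Igfbp4 25.3% ± 7.04, while Igfbp3 took 34.9% ± 3.07 in place of 7.20% ± 0.749, and Igfbp2 13.0% ± 4.25 in place of 0.319% ± 0.397. Igfbp6 took 8.39% ± 4.48 and Igfbp7 5.61% ± 4.32 in myoblasts. The order of levels per kb in MuSCs was Igfbp5, Igfbp4, Igfbp3, Igfbp7, Igfbp6 and Igfbp2. The libraries of Igfbp5 and Igfbp4 overlapped, as did those of Igfbp7 with both Igfbp3 and Igfbp6.

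**Figure D3:**
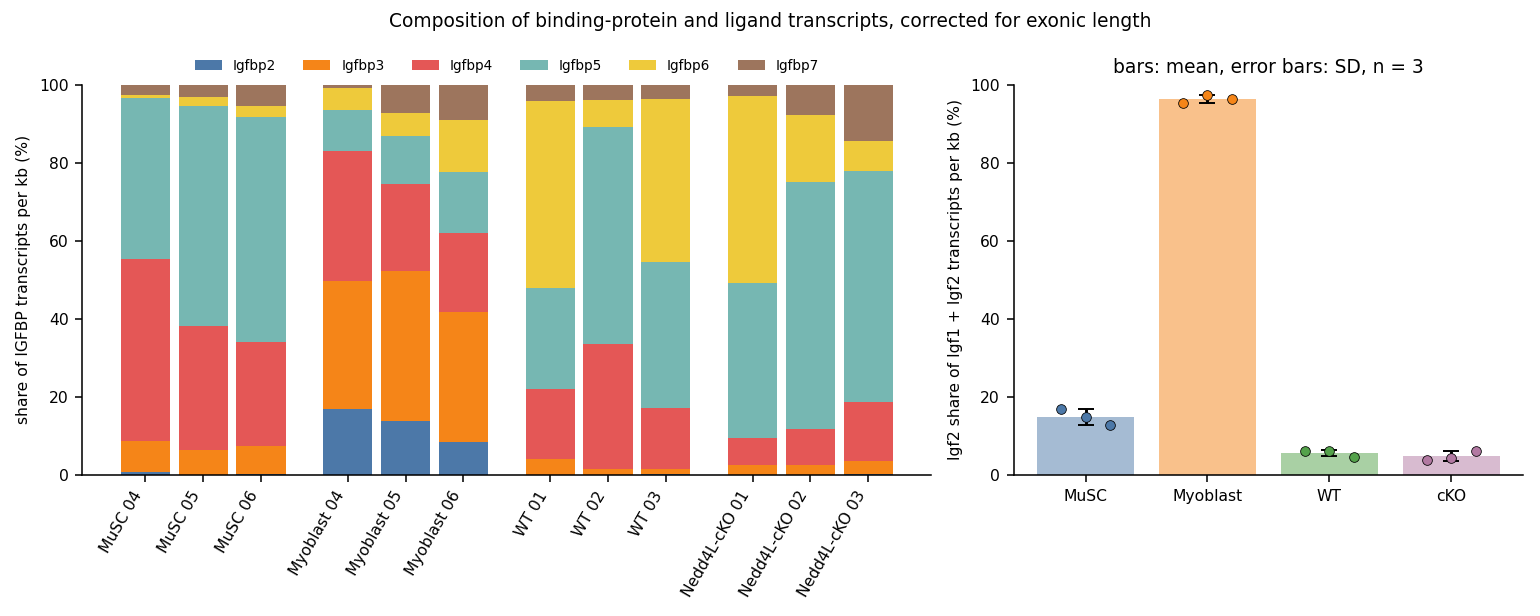
Left, share of each binding protein in the transcripts of the 6 binding proteins per kb of exonic sequence in each of the 12 libraries, in percent. Right, Igf2 as a percentage of Igf1 plus Igf2 per kb, with bars for means, error bars for SD (n = 3) and points for libraries. The Igf2 share was 14.9% in MuSCs and 96.4% in myoblasts, and near 5% in both genotypes. The share of Igfbp6 varied widely in both genotypes.

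Between genotypes, 1 of the 10 genes was called, Igfbp5, and it was higher in Nedd4L-cKO MuSCs. Over all genes tested, 0.784% were called, 0.523% higher and 0.261% lower, or 80 and 40 genes, which became 56 and 44 when each library was scaled to its own total. Of the 10, 5 had an unadjusted p under 0.05 (limma), against 14.6% of all genes tested. The groups did not overlap for 4 of the 10 (Igf1, Igf2, Igfbp5 and Igfbp7), against 19.3% of all genes tested, and in each of the 4 the Nedd4L-cKO libraries were higher. The median log2 difference was 0.64 over the 10 and 0.0015 over all genes.

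Igfbp5 stood at 276, 414 and 288 RPM in WT MuSCs 01, 02 and 03 and at 674, 941 and 888 RPM in Nedd4L-cKO MuSCs. Every Nedd4L-cKO library was above every WT library, and the mean was 2.56 times higher, from 326 ± 76.3 to 834 ± 141.6 RPM (SD, n = 3). The log2 difference was 1.36 (SE 0.26, 95% confidence limits 0.80 to 1.93, limma adjusted p = 0.0395), which ranked Igfbp5 at 77 of the 15304 genes by p. The size ranged only from 1.23 to 1.55 over 15 alternatives, but 8 of them ended the call. It was lost without WT replicate 01 (limma adjusted p = 0.124), 02 (0.0651) or 03 (0.0740), without Nedd4L-cKO replicate 02 (0.158) or 03 (0.0550), on scaling each library to its own total (0.0626), without trend and robust moderation (0.0823) and with the replicate number as a block (0.0631). Mural markers were also higher in Nedd4L-cKO MuSCs: the 8 summed to 1339, 1235 and 2009 RPM in WT and to 2217, 2591 and 3384 RPM in Nedd4L-cKO. None of the 8 was at 0, none was called by limma and 5 had an unadjusted p under 0.05. By mean, Acta2 led with 721 RPM in WT and 1240 RPM in Nedd4L-cKO. Rgs5, a defining pericyte marker, followed with 628 and 1190 RPM. Rgs5 was above Acta2 in replicates 02 and 03 of both groups. In the culture comparison Acta2 was high where Rgs5 was low. Acta2 was at 1078 to 1382 RPM in fresh MuSCs and 1610 to 2400 RPM in myoblasts. Rgs5 was at 4.44 to 16.6 RPM and 8.23 to 22.7 RPM in the same libraries. The myoblast and mature fiber markers given above also ran higher in Nedd4L-cKO MuSCs, with 9 of 10 and 10 of 10 differences positive. The part of any of these in the level of Igfbp5 was not tested.

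Igf1 was at 858, 799.7 and 631 RPM in WT and at 1782, 1635 and 1397 RPM in Nedd4L-cKO MuSCs. The groups were well apart and the mean was 2.10 times higher, but the log2 difference of 1.08 (SE 0.24, 95% confidence interval 0.56 to 1.59) missed the threshold (limma adjusted p = 0.0648, rank 164 by p). It passed without Nedd4L-cKO replicate 03 (1.17, limma adjusted p = 0.0469), and over all alternatives the adjusted p ran from 0.0376 to 0.208. The markers of fibro-adipogenic progenitors overlapped between genotypes, with sums of 3130, 1775 and 2777 RPM in WT and 3757, 2342 and 1677 RPM in Nedd4L-cKO. None of the 12 was at 0 in all 3 libraries of a group and none was called by limma, with 0 at an unadjusted p under 0.05. Pdgfra was at 1.34, 0.0705 and 0.683 RPM in WT and at 1.09, 0.397 and 0.412 RPM in Nedd4L-cKO.

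Igf2 was at 31.6, 28.8 and 17.2 RPM in WT and at 40.2, 42.0 and 51.6 RPM in Nedd4L-cKO, without overlap (log2 difference 0.80, 95% confidence interval 0.16 to 1.44, limma adjusted p = 0.244). As both ligands were higher, the makeup of the pool was much the same, with Igf2 at 5.62% ± 0.852 of ligand transcripts per kb in WT and 4.82% ± 1.22 in Nedd4L-cKO. The pool itself was at 79.0 ± 12.9 RPM per kb (SD, n = 3) in WT and 165 ± 17.9 in Nedd4L-cKO, and the 6 binding proteins together were at 143 ± 30.1 and 259.9 ± 19.7 RPM per kb, neither overlapping. Ligand transcripts per binding-protein transcript were 0.560 ± 0.0979 and 0.633 ± 0.0461.

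The receptors were not called between genotypes. Igf1r was at 57.8, 59.0 and 58.5 RPM in WT, a narrow range, and at 30.9, 46.3 and 60.9 RPM in Nedd4L-cKO (log2 difference -0.39, 95% confidence interval -1.01 to 0.23, limma adjusted p = 0.565). Igf2r was at 109, 152 and 92.6 RPM in WT and at 82.1, 97.2 and 200.3 RPM in Nedd4L-cKO, where replicate 03 was above all other libraries (log2 difference 0.02, 95% confidence interval -0.72 to 0.77, limma adjusted p = 0.985). Insr was lower in every Nedd4L-cKO library, at 17.2, 18.8 and 21.5 RPM against 38.0, 46.9 and 36.0 RPM in WT, and did not pass (log2 difference -1.03, limma adjusted p = 0.101).

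Igfbp7 was at 39.2, 25.5 and 26.1 RPM in WT and at 43.2, 103 and 195 RPM in Nedd4L-cKO. The groups did not overlap, but Nedd4L-cKO replicate 01 was close to WT replicate 01, and the log2 difference of 1.65 (SE 0.45, 95% confidence interval 0.67 to 2.63) did not pass (limma adjusted p = 0.126). It passed without Nedd4L-cKO replicate 01 (2.22, limma adjusted p = 0.0172) and was 1.14 without replicate 03. Within the Nedd4L-cKO group, Igfbp7 stood in the same order as the mural marker sum, but in WT it did not, since replicate 03 had the highest mural sum and replicate 01 the highest Igfbp7. Rgs5, a defining pericyte marker, was at 280.1, 569.8 and 1034 RPM in WT and at 355, 1270.4 and 1945 RPM in Nedd4L-cKO. In the fresh MuSCs of the culture comparison Rgs5 was at 16.6, 4.44 and 8.44 RPM. The part of mural cells in the level of Igfbp7 was not tested.

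Igfbp6 varied widely among libraries, with 104, 10.5 and 64.9 RPM in WT and 165, 52.4 and 23.6 RPM in Nedd4L-cKO (log2 difference 0.49, 95% confidence interval -1.78 to 2.75, limma adjusted p = 0.854). The 8 markers of tendon cells and glia summed to 1161, 169 and 583 RPM in WT and to 909.7, 459 and 272 RPM in Nedd4L-cKO. The order of the libraries was the same as for Igfbp6 within each group. It was also the same for the summed markers of fibro-adipogenic progenitors given above for Igf1. Among them Mfap5 had it, at 28.6, 2.35 and 24.5 RPM in WT and at 96.0, 24.7 and 3.18 RPM in Nedd4L-cKO. Not all of that list did. Dpt was at 379, 474 and 232 RPM in WT and at 271, 273 and 328 RPM in Nedd4L-cKO. Col1a1 had it in WT, at 512, 47.6 and 146 RPM, but the reverse in Nedd4L-cKO, at 89.6, 115 and 147 RPM. None of the 8 tendon and glial markers was at 0 in all 3 libraries of a group, none was called by limma and 3 had an unadjusted p under 0.05. The tendon marker Tnmd was at 499, 62.0 and 237 RPM in WT and at 655, 261 and 132 RPM in Nedd4L-cKO. The part of tendon cells or of fibro-adipogenic progenitors in the level of Igfbp6 was not tested.

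**Figure D4:**
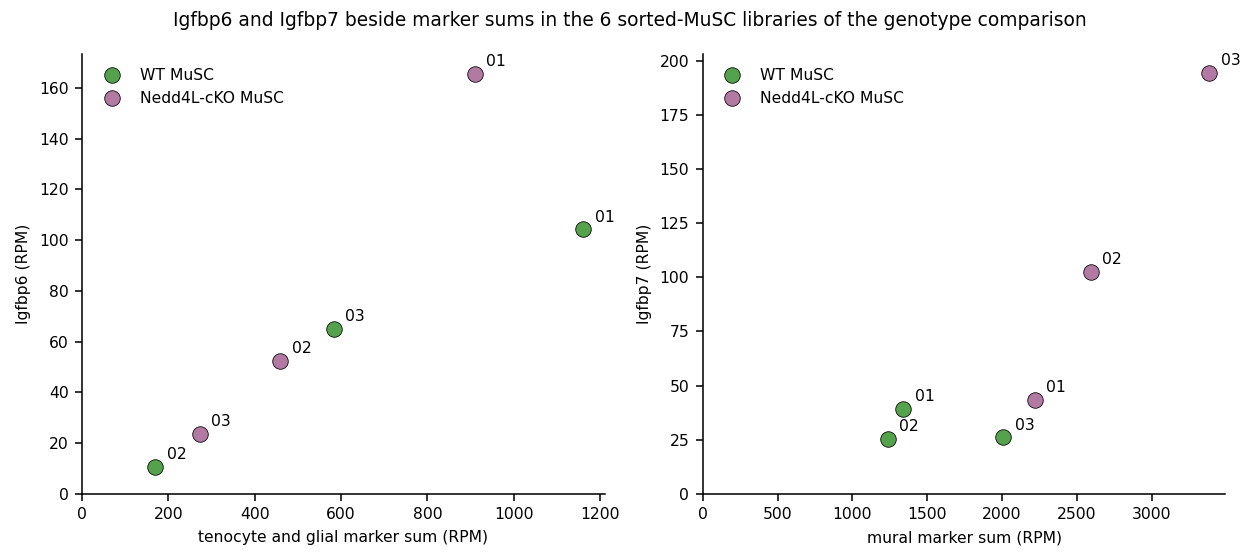
Left, Igfbp6 against the summed tendon and glial markers, and right, Igfbp7 against the summed mural markers, both in RPM, in the 3 WT and 3 Nedd4L-cKO libraries of the genotype comparison, each point labelled with its replicate number. Igfbp6 runs from 10.5 RPM at a marker sum of 169 RPM to 165 RPM at 909.7 RPM, and the highest marker sum, 1161 RPM, has 104 RPM. Igfbp7 is highest, at 195 RPM, where the mural sum is highest, 3384 RPM, while WT replicate 03 has 26.1 RPM at a mural sum of 2009 RPM, against 39.2 RPM at 1339 RPM in WT replicate 01.

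The other binding proteins were not called. Igfbp3 was at 26.0, 7.19 and 6.52 RPM in WT and at 23.8, 21.7 and 31.1 RPM in Nedd4L-cKO, where WT replicate 01 fell among the Nedd4L-cKO libraries (log2 difference 1.15, limma adjusted p = 0.273). Igfbp4 was at 126, 155 and 79.1 RPM in WT and at 78.2, 90.8 and 147 RPM in Nedd4L-cKO (log2 difference -0.19, 95% confidence interval -0.89 to 0.51, limma adjusted p = 0.829). Igfbp2 was again close to absent, listed at 0 in WT replicates 01 and 02 and Nedd4L-cKO replicate 02 and at most 0.528 RPM elsewhere. Per kb, Igfbp5 made up 39.7% ± 15.1 of binding-protein transcripts in WT and 54.1% ± 12.6 in Nedd4L-cKO, and the libraries overlapped.

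The fresh WT MuSCs of both comparisons can be set side by side, but the tables were normalized separately and no test was made. Igf1 was at 547 to 696 RPM in one and 631 to 858 RPM in the other, and Igfbp4 at 149.8 to 189 and 79.1 to 155 RPM. Igf2 was lower in the genotype comparison, at 17.2 to 31.6 RPM against 53.3 to 72.9. Igfbp6 was at 10.5 to 104 RPM against 0.794 to 5.25. Tendon and glial markers summed to 169 to 1161 RPM there against 14.1 to 24.3 RPM in the MuSCs of the culture comparison.

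Around the 10 genes, 16 other genes of the IGF axis were listed by hand: proteases that free IGFs, their inhibitors, further carriers, the insulin receptor family and the RNA-binding proteins of Igf2 mRNA. Of these, 9 were listed and 8 tested in culture and 4 called, 3 higher and 1 lower, a share near the 42.8% called over all genes. Igf2bp2, which binds Igf2 mRNA, rose from 2.59, 3.47 and 3.27 RPM to 71.7, 62.5 and 55.2 RPM (log2 difference 3.96), whereas Igf2bp1 was at most 0.976 RPM and Igf2bp3 was at 8.71 to 12.1 RPM in MuSCs and 5.01 to 8.31 RPM in myoblasts (limma adjusted p = 0.147). Htra1, a secreted protease that can cleave binding proteins, fell from 67.4, 82.7 and 71.5 RPM to 11.6, 3.96 and 3.83 RPM (log2 difference -3.48, limma adjusted p = 0.000171). Pappa2, a protease of IGFBP3 and IGFBP5, and Stc1, an inhibitor of such proteases, also rose but were at most 2.91 and 1.95 RPM. Stc2, a further inhibitor, was at 10.5, 5.47 and 5.86 RPM in MuSCs and 9.21, 12.9 and 20.6 RPM in myoblasts and did not pass (limma adjusted p = 0.102).

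Among 37 intermediates of IGF signalling, all tested, 17 were called in culture, 7 higher and 10 lower, also near the shares over all genes (42.8% called, 22.2% higher and 20.6% lower), with a median log2 difference of -0.00066. The counts thus do not set the list apart, and single genes are given for their values. The adaptor Irs1 went from 106, 131 and 120.2 RPM to 60.6, 62.6 and 52.8 RPM (log2 difference -1.01), and Irs2 fell by 2.12 on the log2 scale. Grb10, an adaptor that restrains IGF1R, went from 672, 494 and 432 RPM to 104, 129 and 156 RPM (-2.02). Pik3r1, a regulatory subunit of PI3K, fell most (-3.01), and Foxo3 (-2.62), Tsc1 (-1.93), Sos1 (-1.59), Pik3ca (-1.41) and Gsk3b (-0.86) were also lower.
Akt2, the AKT isoform most tied to insulin action, rose most, from 86.7, 72.1 and 65.4 RPM to 382, 489 and 513 RPM (log2 difference 2.61). Increases were also called for the adaptors Shc1 (2.12) and Grb14 (1.21), the PI3K subunit Pik3cb (2.11), the mTORC1 subunit Rptor (1.91) and the kinase Map2k1 (1.15). Foxo1 was at 87.0, 48.7 and 53.4 RPM in MuSCs and 12.9, 47.4 and 39.0 RPM in myoblasts and did not pass (limma adjusted p = 0.0928). Eif4ebp1, the translation repressor that mTORC1 inhibits, was abundant in both, at 350 to 426 and 302 to 517 RPM (log2 difference -0.00066). Rheb, which activates mTORC1, was at 261 to 299.7 RPM in MuSCs and 177 to 262 RPM in myoblasts (limma adjusted p = 0.0946).

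FoxO factors are held out of the nucleus by AKT, and 13 genes known to be activated by them were listed. In culture 8 of the 13 were called, 7 of them lower, against 42.8% called and 20.6% lower over all genes, with a median log2 difference of -1.22 against 0.04 over all genes. Sesn1 went from 179, 142 and 165 RPM to 19.5, 18.2 and 18.2 RPM (log2 difference -3.05). The PI3K inhibitor Pik3ip1 (-2.41), Klf15, the cell-cycle inhibitor Cdkn1b (-1.96), Ccng2 (-1.23), Pdk4 (-1.20) and Irs2 made up the rest. Trim63, a ubiquitin ligase of muscle fibers, was the only target called higher, going from 0, 0.0805 and 0.666 RPM to 24.5, 35.9 and 52.5 RPM (log2 difference 4.92), alongside the 10 markers of mature fibers, which summed to 365 to 563 RPM in MuSCs and 9641 to 26640 RPM in myoblasts. Called or not, 4 of the 13 had a positive difference, against 51.7% of all genes tested. Gadd45a, the most abundant of the 13, was at 163 to 274 RPM in MuSCs and 195 to 447 RPM in myoblasts and did not pass (limma adjusted p = 0.163).

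Between genotypes none of the genes in these lists was called by limma. An unadjusted p under 0.05 was reached by 2 of the 8 other axis genes tested, 6 of the 37 intermediates and 2 of the 13 FoxO targets, beside the 14.6% of all genes tested. Among the intermediates, 9 of 37 had a positive difference, against 50.1% of all genes tested, and the median was -0.25. Pik3r1 was at 121, 187 and 128 RPM in WT and at 47.8, 57.6 and 93.6 RPM in Nedd4L-cKO (log2 difference -1.15, limma adjusted p = 0.113), and Irs1 at 42.2, 49.6 and 26.8 RPM and at 9.53, 26.3 and 20.4 RPM (-1.10, limma adjusted p = 0.213). The genotypes did not overlap for either gene. Irs2 was at 48.9, 65.1 and 58.0 RPM in WT and 62.4, 74.6 and 100.9 RPM in Nedd4L-cKO (0.44, limma adjusted p = 0.472). Grb10, Foxo1 and Foxo3 differed by -0.20, -0.16 and -0.12 on the log2 scale, with limma adjusted p-values from 0.817 to 0.910. The other abundant genes of the lists gave 0.79 for Htra1, 0.61 for Igf2bp3, 0.03 for Igf2bp2, -0.32 for Stc2, 0.26 for Rheb, 0.04 for Eif4ebp1, -0.41 for Gsk3b, 0.28 for Gadd45a, -0.35 for Ccng2, -0.34 for Sesn1 and 0.16 for Pdk4. Without Nedd4L-cKO replicate 03, Pik3r1 alone was called.

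**Figure D5:**
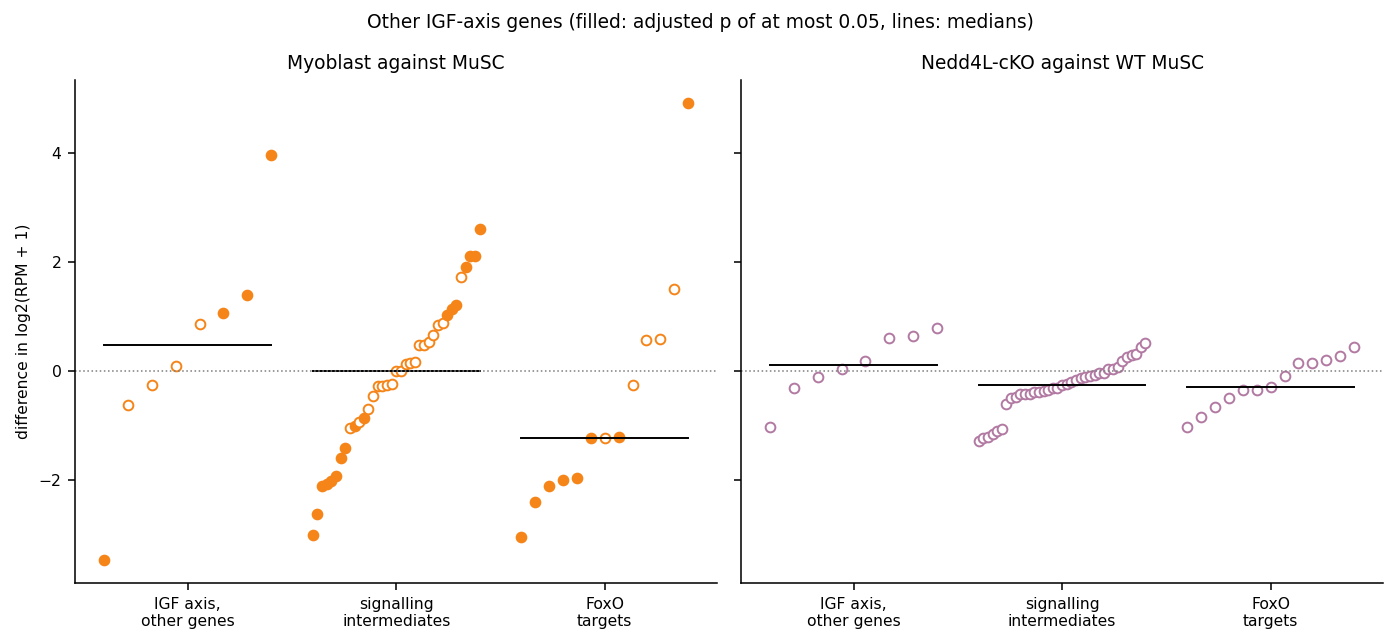
Log2(RPM + 1) differences of the other genes of the IGF axis, the signalling intermediates and the FoxO targets, for myoblasts minus MuSCs (left) and Nedd4L-cKO minus WT MuSCs (right), ordered by size within each list, filled where the adjusted p was at most 0.05, with lines at the medians. In culture the intermediates fall on both sides of 0 and most FoxO targets below it (median -1.22), and between genotypes no gene is filled.

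Genes with the most similar pattern were found as those with the smallest root mean square difference (RMS) of the mean-centred log2(RPM + 1) profile over the 6 libraries of a comparison. With 3 libraries a group this mostly ranks the size of the group difference, and it says nothing of shared control. In culture, Igf1 was closest to Ppp1r14a, Lgals9 and Nfib (RMS 0.186 to 0.227), Igf2 to Cidea, Nxf7 and Actn1 (0.140 to 0.156) and Igfbp2 to Tes, Chst15 and Orai2 (0.187 to 0.271). Igfbp5 was closest to Irf7, Hmgcs1 and Zbp1 (0.0852 to 0.212). Igfbp3 was closest to the adaptor Shc1 (0.0738), followed by Zmiz1 and Nradd. Between genotypes, Igf1 was closest to Arpp21, Creld2 and Tagln2 (0.116 to 0.124) and Igfbp5 to Marveld2, Aass and Slc22a4 (0.140 to 0.157). Igfbp6 was closest to Tnmd, Fam180a and Kera (0.226 to 0.343), of which Tnmd and Kera are known from tendon and other dense connective tissue. Igfbp7 had no near neighbour, with Ncf4, Hic1 and Serpina3n at 0.304 to 0.323.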

How the data were processed

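RNA of 1000 cells per library was sequenced as 75-base single-end reads, and per the labels and the study's methods the authors counted transcripts with kallisto 0.46.1 on GENCODE annotation, brought the estimates to gene level through tximport and normalized them with DESeq2. The values used are the deposited normalized counts, a signal per gene that is not raw counts, in 2 tables normalized separately, so tests were made within a table. Their columns of fold changes and p-values, RPM and repeated counts were not used. No column belonged to samples other than those described.

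Normalized counts were divided by the mean total of the 6 libraries of a table and multiplied by 1000000 to give RPM. Genes that reached 10 normalized counts in 3 or more libraries were tested with limma 3.58.1 in R 4.3.3 (trend and robust moderation) on log2(RPM + 1), adjusted by the Benjamini-Hochberg method over all genes tested, after a test on simulated data. Confidence intervals are 95%. Each library is 1 mouse. An exact permutation test of 3 against 3 cannot go below 0.1, so none is quoted. Depth is unknown, and counting error could not be given.

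The MuSC and myoblast libraries of one number come from 1 mouse, which pairs them, although their deviations from the group means correlated at only -0.03, -0.01 and 0.02. The block changed no count of calls by over 1.5 times in that comparison.

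Gene positions and exonic lengths (union of exons) are from GENCODE on GRCm39, and promoters from RefSeq on GRCm38.p6. The counting is not known to use strand. The 10 genes, the gene and marker lists and the tests were chosen with earlier results of these data known. Named genes are all 10, those of the 3 pathway lists that were called or among the 5 most abundant of a list, Irs1, Irs2, Insr, Foxo1, Foxo3, Grb10 and the 3 Igf2bp genes, Nedd4l, and the 3 genes nearest in pattern. Some genes that this rule names are counted with their list but not reported here by name. Pik3r1 between genotypes and the single markers given were named after their values were seen. Alternatives were other scalings, pseudocounts, filters, moderation, a fold and level threshold, the replicate block, other gene lengths and each library left out.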

Additional observations from a re-analysis of the deposited data

How the results depend on the processing

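In culture, the number of the 10 genes called was 5 to 7 over all alternatives and 6 with the replicate block, and 28 pathway genes were called with the block. Between genotypes the 1 call became 0 with each library scaled to its own total, 0 without trend and robust moderation, 0 with the replicate block, 2 with at least 10 normalized counts in all 6 libraries and 0 to 2 with a library left out, and the pathway genes called were 0 to 1 with a library left out. There the numbers 01 to 03 mark different mice, same-numbered libraries correlated in their deviations at 0.02, -0.02 and -0.18, and the block lowered the calls over all genes from 120 to 76. Scaling to own totals moved the median of all genes to 0.14 in culture and -0.09 between genotypes. Directions changed only for genes that were not called. In culture Igfbp7 turned to 0.086 with own totals and 0.064 with a pseudocount of 5 and ran from -0.61 to 1.06 with a library left out, and Igf1r from -0.48 to 0.45. Between genotypes Igf2r turned to -0.105 with own totals and ran from -0.36 to 0.28 with a library left out, Igfbp4 from -0.46 to 0.024 and Igfbp6 from -0.47 to 1.13. Without length correction the Igf2 share was 8.92% in MuSCs, 93.7% in myoblasts, 3.23% in WT and 2.76% in Nedd4L-cKO, and the Igfbp5 share 62.4%, 21.3%, 59.3% and 71.8%. The causes were not tested. A lone library was never left in a group. Unknown depth limits what can be said of Igfbp2 in MuSCs.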
